A study of Mus musculus with 4 samples.

Results

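The genes described here are 10 members and targets of the bone morphogenetic protein (BMP) pathway in mouse embryonic stem cells, namely Bmp4, Bmpr1a, Smad1, Smad5, Smad6, Id1, Id2, Id3, Msx1 and Msx2. They were taken by name, with every probe set that the annotation of the array (Affymetrix Mouse Genome) gives to one of them alone, which came to 23 probe sets of the 34945 that name 1 gene and to 10 of 18193 genes. Of the 23 probe sets, 19 lay above a signal of 77.7, the level under which genes were not tested, and each of the 10 genes kept at least 1. That level left out the dimmest 40% of genes, and 10916 genes were tested.

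RNA came from 4 embryonic stem cell lines, 2 described as UTX conditional knockout (cKO) and 2 as UTX knockout (KO), each measured on 1 array. UTX, the product of Kdm6a, is a demethylase of trimethylated lysine 27 of histone H3. All lines were kept on irradiated embryonic fibroblasts in medium with 15% serum and 1000 u/ml of leukaemia inhibitory factor (LIF), and were then passaged on gelatin to deplete the fibroblasts before RNA was taken, so serum and LIF were shared by both groups. How the knockout lines were derived, which recombinase was used and whether the RNA came from separate cultures are not given in the sources used here, so the p-values rest only on how far these 4 samples differ, and that spread may be technical. With 2 lines in each group, an exact permutation test cannot reach 0.05, and the tests below are those of limma across all genes, with Benjamini-Hochberg adjusted p-values.

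BMP ligands bind a complex of type I and type II serine/threonine kinase receptors, which phosphorylates Smad1, Smad5 and Smad9. These Smads join Smad4, enter the nucleus and switch on target genes, among them the Id genes and the inhibitory Smads that close a feedback loop. In mouse embryonic stem cells BMP4 and the Id proteins are known to hold back differentiation in concert with LIF, and in the embryo BMP4 drives mesoderm and the germ line.

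The labelled cell type and the targeted gene were checked first. All 8 embryonic stem cell markers (Pou5f1, Sox2, Nanog, Zfp42, Esrrb, Dppa5a, Tdgf1 and Utf1) read between 2392 and 23490 on every array. The Kdm6a signal was 658 (cKO line 1), 415 (cKO line 2), 265 (KO line 1) and 198 (KO line 2) (log2 fold change -1.17, SE 0.27, limma adjusted p = 0.0884) and each KO line was under each cKO line. The test was not passed with all arrays. With 1 array left out the log2 fold change ran from -0.84 without cKO line 1 to -1.50 without cKO line 2. Nor was it passed with cKO line 1 left out (-0.84) or with KO line 2 left out (-0.97). Averaging over all Kdm6a probe sets, of which 1440524_at and 1445198_at lay below the filter, gave -0.57 (limma adjusted p = 0.522). The other Kdm6a probe set above the filter, 1427672_a_at, read 382 and 267 in cKO against 153 and 132 in KO. Its log2 fold change was -1.14 (limma adjusted p = 0.102 over all probe sets). Whether the Kdm6a probe sets lie in the deleted part was not tested, so a signal left in KO lines does not bear on the labels. Markers of feeder fibroblasts moved with the groups. Of 20 listed, 19 had a probe set and 12 passed the filter, all 12 with a negative log2 fold change and 3 of them called (Tagln, Col5a1 and Thy1). The summed signal of all 19 was 23734 and 16464 in the cKO lines against 8456 and 9415 in the KO lines, and no marker was at 0. Most of that sum came from Acta2 (10140 and 6210 against 4163 and 4809) and Tagln (8938 and 7092 against 2230 and 2469). Below the filter, Prrx1 was higher in both KO lines (30.7 and 31 against 60.1 and 53.8). Of the others there, Col6a1, Fap and Pdgfra were lower in both KO lines, and Lum, Pdgfrb and Twist1 overlapped. Summed markers of the trophectoderm, of which Krt8 and Krt18 were called, read 19740 and 13909 in cKO and 8284 and 5854 in KO, and these genes made up most of that sum. Of the 5 tested on that list, 3 had a negative and 2 a positive value, the latter being Tfap2c (0.79) and Hand1 (0.30), both higher in each KO line than in either cKO line. In such bulk samples fewer cells of a type and less RNA per cell cannot be told apart, and the part of these cells in the results below was not tested.

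None of the 10 BMP genes passed the test between KO and cKO lines. At an adjusted p under 0.05, limma called 0 of 10, against 2.2% of all genes tested, 0.632% being higher and 1.57% lower in KO. At an unadjusted p under 0.05 it gave 2 of 10, Id1 lower and Smad6 higher in KO, against 13.8% of all genes (5.92% higher and 7.91% lower). Positive and negative log2 fold changes were equally many, 5 of each, where 51.4% of all genes were positive, and the median of the 10 was -0.02, beside 0.01 for all genes tested. In size the median was 0.24 without regard to sign, and 0.17 over all genes. Fitted separately, the 19 probe sets above the filter gave 0 calls as well, with adjusted p from 0.133 to 0.98, where 1.27% of all probe sets were called. The groups did not overlap in 8 of the 19, against 40.8% of all probe sets. For 3 of the 10 genes both KO lines lay on one side of both cKO lines, Smad6 above and Id1 and Smad5 below, a share close to the 42.6% of all genes for which this held.

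**Figure D1:**
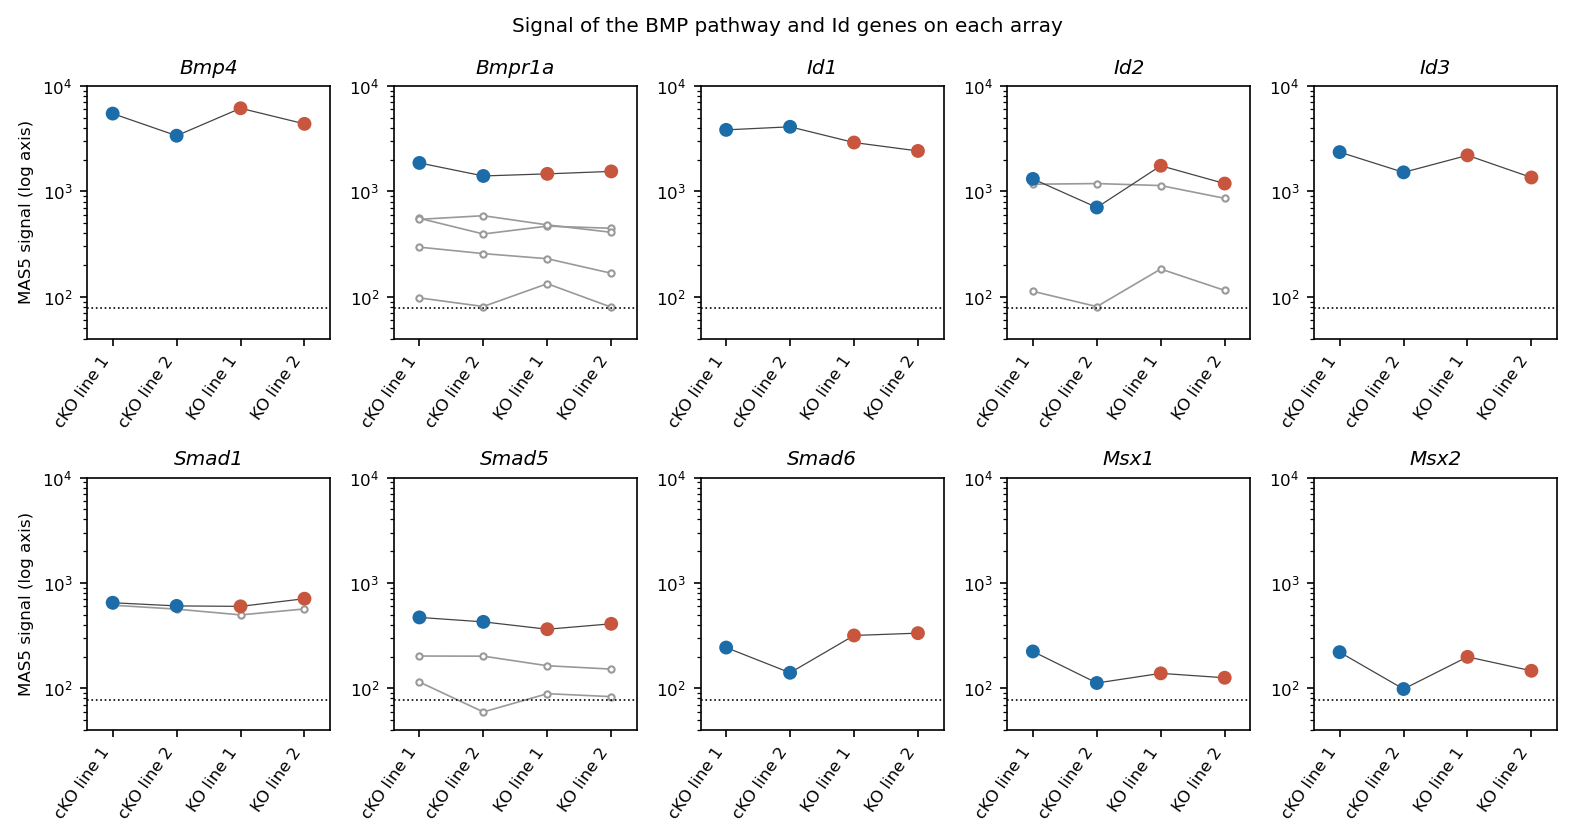
MAS5 signal (log axis) of the 10 genes on each of the 4 arrays, cKO lines in blue and KO lines in red. Filled points show the probe set that stands for the gene, open grey points its other probe sets above the filter, thin lines join the values of 1 probe set, and the dotted line is the filter level of 77.7. By the filled points, the groups are apart for Id1, Smad5 and Smad6, while Bmp4, Id2, Id3, Msx1 and Msx2 read higher in line 1 than in line 2 of each group.

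Bmp4, the ligand of the set, was bright on every array. Its signal was 5473 (cKO line 1), 3374 (cKO line 2), 6148 (KO line 1) and 4372 (KO line 2). Line 1 was the higher one in each group, and the groups overlapped, since KO line 2 read below cKO line 1. Means were 4424 ± 1484 for cKO against 5260 ± 1255 for KO (SD, n = 2 lines each). This made a log2 fold change of 0.27 (SE 0.25, 95% interval -0.32 to 0.86, limma adjusted p = 0.735). That interval runs from a KO level at 0.801 times the cKO level to one at 1.82 times. Without cKO line 2 the value turned to -0.08 (adjusted p = 0.993).

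Bmpr1a encodes ALK3, a type I receptor that binds BMP4. The probe set of highest mean gave 1861 (cKO line 1), 1400 (cKO line 2), 1466 (KO line 1) and 1547 (KO line 2), so that the KO values fell between the cKO values. The log2 fold change was -0.10 (SE 0.18, 95% interval -0.52 to 0.32, limma adjusted p = 0.881). Leaving out cKO line 1 turned it to 0.11 (adjusted p = 0.93). Of its 6 probe sets, 1 stayed under 21 on every array and the other 4 above the filter did not go one way. The 2 whose groups were apart were both lower in KO. One of them, 1425491_at, read 296 and 257 against 230 and 167 (log2 fold change -0.48, limma adjusted p = 0.532 over all probe sets). The other, 1425494_s_at, read 543 and 587 against 481 and 409 (-0.35, limma adjusted p = 0.572). Neither passed the test, and 2 further probe sets gave -0.03 and 0.20.

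Smad1 and Smad5 carry the signal from the receptors to the nucleus. Smad1 read 648 and 604 in cKO and 598 and 707 in KO, with KO line 1 the lowest and KO line 2 the highest of the 4. Its log2 fold change was 0.06 (SE 0.17, 95% interval -0.34 to 0.46, limma adjusted p = 0.936). Leaving out KO line 2 turned it to -0.06 (adjusted p = 0.954). The other Smad1 probe set above the filter gave -0.15 (limma adjusted p = 0.839), so the sign was not shared between them. The Smad1 interval is among the narrower ones here and holds changes up to 1.37-fold higher.

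Smad5 signals were 470 (cKO line 1), 426 (cKO line 2), 363 (KO line 1) and 409 (KO line 2). Both KO values were under both cKO values, by a margin smaller than the spread within either group. The log2 fold change was -0.21 (SE 0.18, 95% interval -0.63 to 0.20, limma adjusted p = 0.697), and -0.13 with KO line 1 left out (adjusted p = 0.933). A second probe set, 1451873_a_at, was nearly equal in the cKO lines, at 202 and 201 (SD 0.401, n = 2), and read 164 and 152 in the KO lines. Its log2 fold change was -0.35 with a limma adjusted p = 0.657 over all probe sets, since limma weighs a gene's own spread together with that of genes of like signal. The remaining Smad5 probe set, near the filter level, gave 0.05.

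Smad6 encodes an inhibitory Smad that blocks the activated receptor and Smad1, and it is itself a BMP target. It had the largest difference of the 10, with signals of 243 (cKO line 1), 140 (cKO line 2), 317 (KO line 1) and 333 (KO line 2). Both KO lines were above both cKO lines, and the KO lines differed far less from each other than the cKO lines did. Means were 192 ± 72.8 for cKO against 325 ± 11.6 for KO (SD, n = 2 lines each), and the log2 fold change was 0.80 (SE 0.28, 95% interval 0.13 to 1.46), 1.74-fold on the scale of log2(signal + 4.79). The unadjusted limma p was 0.0253 but with an adjusted p = 0.263 Smad6 was not called. Leaving out cKO line 1 gave 1.18 (adjusted p = 0.0657), and leaving out cKO line 2 gave 0.41 (adjusted p = 0.809). Leaving out cKO line 2 thus brought the value down more than 1.5 times.

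Of the 10 genes, Id1 had no promoter sequence at hand and was not searched. Promoter sequences of the other 9, 11 windows in all, came from RefSeq (GRCm38.p6). They ran from 250 bases before a transcript's start to 50 after it. They were searched on both strands for GGCGCC, the GC-rich site bound by Smad1 and Smad5, which reads the same on both strands, for the longer TGGCGCC, which contains it, and for CAGAC, the type of site bound by Smad4. The Smad6 stretch is shown because its gene had the largest difference, and the Id2 and Id3 stretches because these genes are textbook targets and hold one kind of match each. Capitals mark the matches, and all 3 stretches lie upstream of the gene.
Smad6, chr9:64022090-64022189, minus strand, bases -130 to -31 from the start: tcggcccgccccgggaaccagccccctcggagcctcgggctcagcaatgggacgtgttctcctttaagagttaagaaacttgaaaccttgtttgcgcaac
Id2, chr12:25096283-25096342, minus strand, bases -250 to -191: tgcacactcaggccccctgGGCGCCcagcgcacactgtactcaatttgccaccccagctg
Id3, chr4:136143642-136143771, plus strand, bases -180 to -51: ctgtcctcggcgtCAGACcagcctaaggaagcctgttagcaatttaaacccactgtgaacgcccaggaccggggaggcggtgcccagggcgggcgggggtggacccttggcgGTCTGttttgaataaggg

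The whole Smad6 window held none of the 3 motifs. GGCGCC was found in 4 of the members' 11 windows, from 3 genes (Id2, Smad5 and Bmpr1a), and in 11.9% of the 32851 windows of all genes. TGGCGCC was in no member's window and in 4.03% of all. CAGAC or its reverse complement was in 2 of the members' 11 windows, from Id3 and Smad5, and in 49.6% of all windows. In Id3 it began at base -167 as written and at base -68 as the reverse complement GTCTG. The members' windows were rich in G and C, from 60% to 79.3%, where the median of all windows was 52.7%. A match is a run of letters only, and binding was not measured.

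The Id genes encode helix-loop-helix proteins without a DNA-binding region, which pair with E proteins and keep them from activating genes. None of them was called, and differences among them were not tested. By their signals, Id1 was lower in both KO lines and Id3 differed more by line number than by genotype. The probe sets of Id2 disagreed in sign.

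Id1 had 1 probe set. Its signal was 3834 (cKO line 1), 4100 (cKO line 2), 2907 (KO line 1) and 2419 (KO line 2). Both KO lines were below both cKO lines, and the gap between the groups was wider than the spread within either. Means were 3967 ± 188 for cKO against 2663 ± 345 for KO (SD, n = 2 lines each), so that KO kept 67.1% of the cKO mean. In limma the log2 fold change was -0.58 (SE 0.14, 95% interval -0.91 to -0.25) at an unadjusted limma p of 0.00437. Id1 was not called, since its limma adjusted p = 0.105. With 1 array left out the log2 fold change ran from -0.71 without KO line 1 to -0.45 without KO line 2. The summed feeder fibroblast markers were lower in KO lines as well, as given above, and their part in the Id1 values was not tested.

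**Figure D2:**
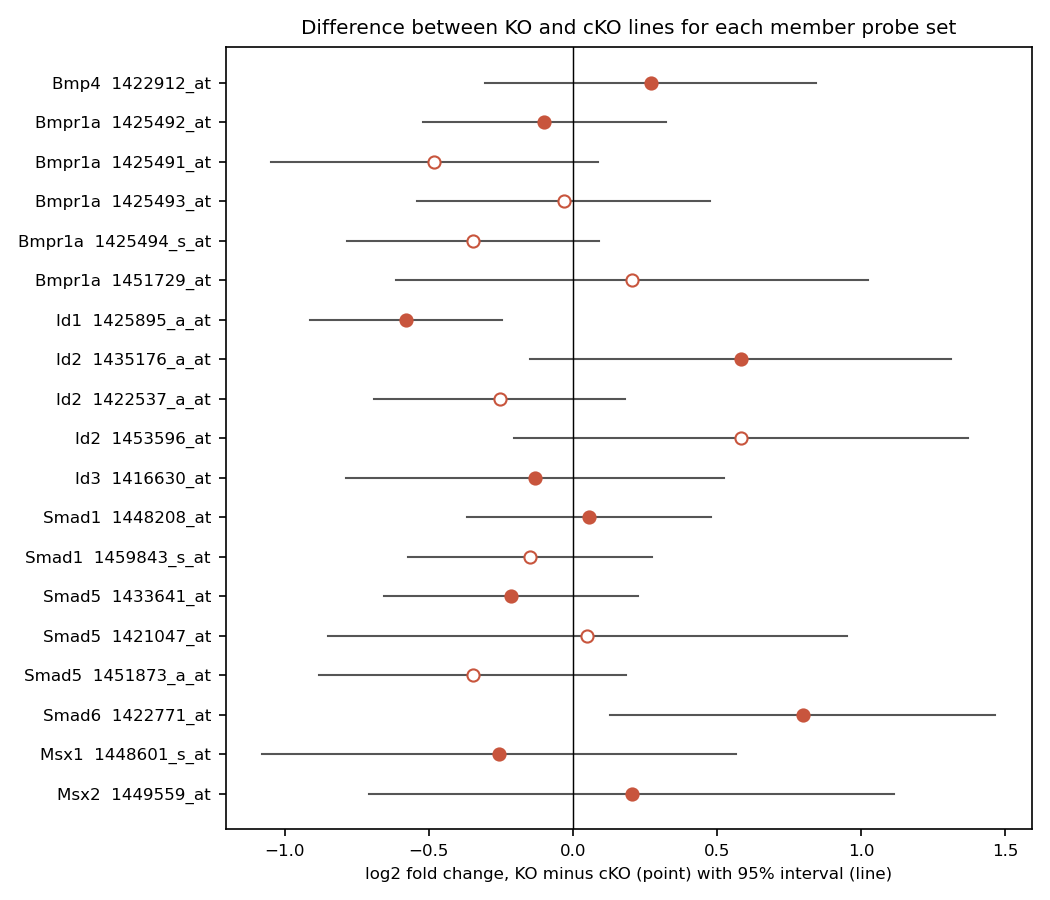
Log2 fold change between KO and cKO (horizontal axis, KO minus cKO) of the 19 member probe sets above the filter, with lines for the 95% interval from limma fitted over all probe sets. Filled points stand for the gene and open points are its other probe sets. The intervals of Id1 and Smad6 leave out 0 and all others include it, and no adjusted p was under 0.133.

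Id2 was measured by 3 probe sets that gave different answers. The one of highest mean, 1435176_a_at, gave 1313 (cKO line 1), 703 (cKO line 2), 1751 (KO line 1) and 1186 (KO line 2), a difference that did not pass (log2 fold change 0.58, SE 0.32, limma adjusted p = 0.511). A second one, 1422537_a_at, read 1169 and 1186 against 1135 and 859 (-0.25, limma adjusted p = 0.704 over all probe sets). The dimmest, 1453596_at, read 113 and 80.6 against 183 and 115 (0.58, limma adjusted p = 0.599). So the first and the dimmest had positive values, with 95% intervals of -0.15 to 1.31 and -0.21 to 1.37. The second had a negative value, with -0.69 to 0.18. In the first the groups overlapped, since KO line 2 read below cKO line 1. With the mean of the 3 probe sets the gene's value was 0.30 (adjusted p = 0.75). With 1 array left out the value of the probe set of highest mean ran from 0.13 without cKO line 2 (adjusted p = 0.993) to 1.03 without cKO line 1 (adjusted p = 0.0634).

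Id3 signals were 2358 (cKO line 1), 1515 (cKO line 2), 2197 (KO line 1) and 1354 (KO line 2). Line 1 exceeded line 2 by 0.64 on the log2 scale in cKO and by 0.70 in KO, while the genotypes differed by -0.13 (SE 0.28, 95% interval -0.80 to 0.54, limma adjusted p = 0.904). The spread between lines of a group was thus several times the difference between the groups. The sign turned when cKO line 1 was left out (0.19, adjusted p = 0.882), and likewise for KO line 2 (0.22, adjusted p = 0.811).

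Id4, the remaining member of the family, was taken from the wider list of pathway genes. Its 3 probe sets kept the same order of arrays, and the brightest read 307 and 180 in cKO and 546 and 242 in KO. Line 1 was above line 2 in both groups and the groups overlapped. The log2 fold change was 0.62 (SE 0.41, 95% interval -0.35 to 1.58, limma adjusted p = 0.612), and it ran from 0.04 without KO line 1 (adjusted p = 0.987) to 1.20 without KO line 2 (adjusted p = 0.0527). The E proteins that Id proteins bind, encoded by Tcf3, Tcf4 and Tcf12, had log2 fold changes of -0.07, 0.16 and -0.14, and 0 of 3 passed (limma adjusted p from 0.751 to 0.919). Other probe sets above the filter differed in sign for Tcf12 and Tcf3, and none passed. Those of Tcf12 gave -0.60 (1421908_a_at, limma adjusted p = 0.416 over all probe sets), 0.26 (1439209_at) and -0.26 (1446294_at). Those of Tcf3 gave 0.175 (1427764_a_at) and -0.34 (1452542_x_at). With cKO line 1 left out Tcf12 was at -0.03 (adjusted p = 0.988), and with cKO line 2 left out Tcf4 was at 0.08 (adjusted p = 0.993). The sign of Tcf3 turned with cKO line 2 left out (0.07, adjusted p = 0.993), as it did with KO line 1 left out (0.07, adjusted p = 0.965).

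Msx1 and Msx2 encode homeobox transcription factors that BMP induces in the limb, neural crest and skull. Both were dim in these cells. Msx1 signals were 223 (cKO line 1), 112 (cKO line 2), 138 (KO line 1) and 126 (KO line 2). Only cKO line 1 stood high, and the log2 fold change of -0.26 (SE 0.35, 95% interval -1.09 to 0.58, limma adjusted p = 0.836) became 0.23 without it (adjusted p = 0.914). The summed feeder fibroblast markers, given above, were highest in cKO line 1 too. In cKO line 2 that sum lay above both KO lines, while Msx1 lay below both. Not every marker was highest in cKO line 1, Thy1 reading 372 there and 466 in cKO line 2. The part of these cells in the Msx1 values was not tested. A second Msx1 probe set, below the filter on the mean, was also highest in cKO line 1, at 93.4, and read 42.2 to 54.5 on the other arrays.

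Msx2 read 220 and 98.2 in cKO and 198 and 146 in KO. The cKO lines were the highest and the lowest of the 4, so the groups overlapped. Its log2 fold change was 0.20 (SE 0.39, 95% interval -0.73 to 1.13, limma adjusted p = 0.892), and leaving out 1 array moved it from -0.36 without cKO line 2 (adjusted p = 0.942) to 0.77 without cKO line 1 (adjusted p = 0.552). Without KO line 1 it was -0.01 (adjusted p = 0.997). The interval reaches up to a 2.19-fold higher level in KO.

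Several members differed more between lines than between genotypes. In 5 of the 10 (Bmp4, Id2, Id3, Msx1 and Msx2) line 1 read above line 2 in both groups, and in none was it below in both. Over all genes tested the shares were 37.3% above and 33.7% below. The median log2 difference between the cKO lines was 0.67 for the 10 genes, while over all genes it was 0.00. Between the KO lines it was 0.20 for the 10 and 0.02 over all genes. The largest differences between the cKO lines were 1.12 for Msx2, 0.97 for Msx1 and 0.90 for Id2. These values are of the probe set of highest mean. The Id2 probe set 1422537_a_at read 1169 and 1186 in the cKO lines, a log2 difference of -0.02. The median signal of the whole array also went with the line number, at 76.6 and 64.4 in cKO and 81.6 and 64.9 in KO, and its part here was not tested. The labels do not say what lines of the same number share. Among the wider pathway genes Tbx3, a T-box transcription factor named here after its values were seen, had the widest such gap, at 559 and 111 in cKO and 375 and 50.2 in KO.

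**Figure D3:**
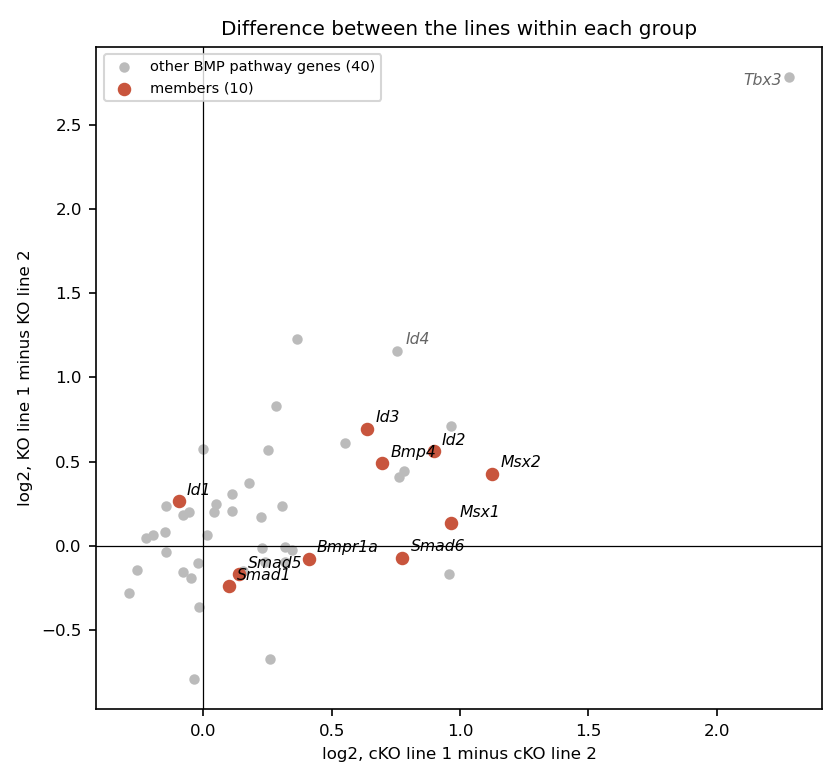
Log2 difference between line 1 and line 2 in the cKO group (horizontal axis) and in the KO group (vertical axis), for the 10 genes in red and 40 other tested genes of the pathway in grey. Each gene is shown by its probe set of highest mean. Bmp4, Id2, Id3, Msx1 and Msx2 lie at the upper right, where line 1 was higher in both groups, with Id3 at 0.64 and 0.70.

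The rest of the pathway was read from a list of 68 genes sorted by role, of which 5 were not analysed here, 23 lay below the filter and 40 were tested. In limma 1 of the 40 passed, lower in KO (against 1.57% of all genes called lower), and 39 did not. At an unadjusted p under 0.05 there were 2 higher and 7 lower, where 5.92% of all genes were higher and 7.91% lower. The median log2 fold change was -0.03, with 17 positive and 23 negative, beside 51.4% positive over all genes.

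The gene that fell was Dusp9, an X-linked phosphatase of the ERK kinases, which BMP4 is known to induce in mouse embryonic stem cells. The probe set of highest mean gave 1764 (cKO line 1), 1427 (cKO line 2), 793 (KO line 1) and 671 (KO line 2). Both KO lines were far below both cKO lines. Taken by line number, which the labels do not pair, this probe set changed by -1.15 and -1.08. The log2 fold change was -1.12 (SE 0.18, 95% interval -1.54 to -0.70, limma adjusted p = 0.0296). A second probe set, 1454737_at, gave nearly the same values, 1751 and 1352 against 776 and 653. Another, 1433844_a_at, read 957 and 1003 against 630 and 428. Its log2 fold change was -0.91, which did not pass (limma adjusted p = 0.126 over all probe sets). By line number it changed by -0.60 and -1.22. The call of Dusp9 as a gene ended without cKO line 1 (-0.96) and in limma without a variance trend (adjusted p = 0.0775). Without cKO line 1 the count of calls was again 1, but the gene was Prdm1, which encodes a transcriptional repressor needed for primordial germ cells. It read 215 and 123 in cKO and 464 and 340 in KO with all arrays (log2 fold change 1.26, limma adjusted p = 0.103), and is named after its values were seen.

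Among ligands and their processing, 0 of 6 tested genes passed, with a median log2 fold change of -0.17. Bmp1, which despite its name is a metalloproteinase that trims procollagen and cleaves the BMP antagonist chordin, read 797 and 408 in cKO and 183 and 206 in KO (log2 fold change -1.53, SE 0.31, limma adjusted p = 0.0618). Bmp8b, a BMP ligand, read 252 and 206 against 130 and 70.8 (-1.21, SE 0.33, limma adjusted p = 0.15). Both were lower in each KO line than in either cKO line. Bmp1 passed in 3 of the 4 fits that leave out an array. Its value was -2.01 (adjusted p = 0.00189) with cKO line 2 out, then -1.45 (adjusted p = 0.0144) with KO line 1 out, and -1.61 (adjusted p = 0.0114) with KO line 2 out. Leaving out cKO line 1, the line with the highest feeder sum, gave -1.05 (adjusted p = 0.108). Averaging over all Bmp1 probe sets, most of them dim, gave -0.51 (adjusted p = 0.793). Bmp8b was at -1.62 without KO line 1 and at -0.79 without KO line 2.

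Receptors gave 0 calls among 6 tested. Bmpr2, the main type II receptor for BMPs, read 1395 and 1380 in cKO and 957 and 916 in KO. The lines of each group were close and the groups apart, with a log2 fold change of -0.57 (SE 0.15, limma adjusted p = 0.124). Averaging over its 3 probe sets, of which the other 2 were dim, gave -0.27 (adjusted p = 0.808). Rgmb, a BMP co-receptor, read 306 and 245 in cKO and 179 and 181 in KO, a log2 fold change of -0.59 (SE 0.22, limma adjusted p = 0.285). Its other probe set above the filter, 1442811_at, was higher in both KO lines, at 155.4 and 123.5 against 181 and 160.6 (0.29, limma adjusted p = 0.76 over all probe sets). Averaging over all Rgmb probe sets, the rest of them below the filter, gave -0.10 (limma adjusted p = 0.951). Bmpr1b, another BMP type I receptor, lay below the filter, with its 3 probe sets under 57 on every array.

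Smads and cofactors gave 0 calls among 7 tested. Smad4, the partner shared with the TGF-beta branch, read 2961 and 3063 in cKO and 2944 and 3363 in KO (log2 fold change 0.06, SE 0.13, 95% interval -0.25 to 0.37, limma adjusted p = 0.9). Without KO line 2 it was -0.03 (adjusted p = 0.974). Smad9 lay below the filter, at 5.80 to 14.3. Tob1, which binds BMP Smads and dampens their activity, read 741 and 435 against 1032 and 776 (0.65, SE 0.28, limma adjusted p = 0.358), and Ski, a corepressor, read 988 and 791 against 1096 and 1174 (0.36, SE 0.17, limma adjusted p = 0.434). Leaving out cKO line 2 gave Tob1 a value of 0.27 (adjusted p = 0.927), and leaving out cKO line 1 gave 1.03 (adjusted p = 0.0572). Averaging over both Tob1 probe sets gave 0.13 (limma adjusted p = 0.944), the other one, 1440844_at, lying below the filter at 4.71 to 21.7. For Ski, leaving out cKO line 2 gave 0.20, which did not pass either.

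Inhibitors gave 0 calls among 11 tested, with a median of -0.02. Fst, follistatin, which binds activins and some BMPs, read 354 and 179 in cKO and 106 and 63.3 in KO (log2 fold change -1.56, SE 0.40, limma adjusted p = 0.122). Leaving out cKO line 2 gave -2.04, and leaving out KO line 1 gave -1.91. With cKO line 1 left out Fst was at -1.08, and with KO line 2 left out at -1.21. Fstl1, a secreted relative of follistatin, read 3307 and 3349 against 1972 and 2542 (-0.57, SE 0.16, limma adjusted p = 0.15). Both genes were lower in each KO line than in either cKO line, as the summed feeder markers were, and the part of those cells was not tested. Smad7, the other inhibitory Smad, read 1719 and 1520 in cKO and 2380 and 1835 in KO. Its KO lines were above both cKO lines, as for Smad6, with a log2 fold change of 0.37 (SE 0.17, 95% interval -0.04 to 0.78, limma adjusted p = 0.425). Leaving out KO line 1 brought it to 0.18 (adjusted p = 0.865), and leaving out KO line 2 to 0.56 (adjusted p = 0.252). In its other probe set above the filter, 1443771_x_at, the groups overlapped, at 258 and 123 against 416 and 194. Nog, noggin, a secreted antagonist of BMP4, lay below the filter, at 51.9 and 22.4 in cKO and 4.29 and 3.11 in KO.

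**Figure D4:**
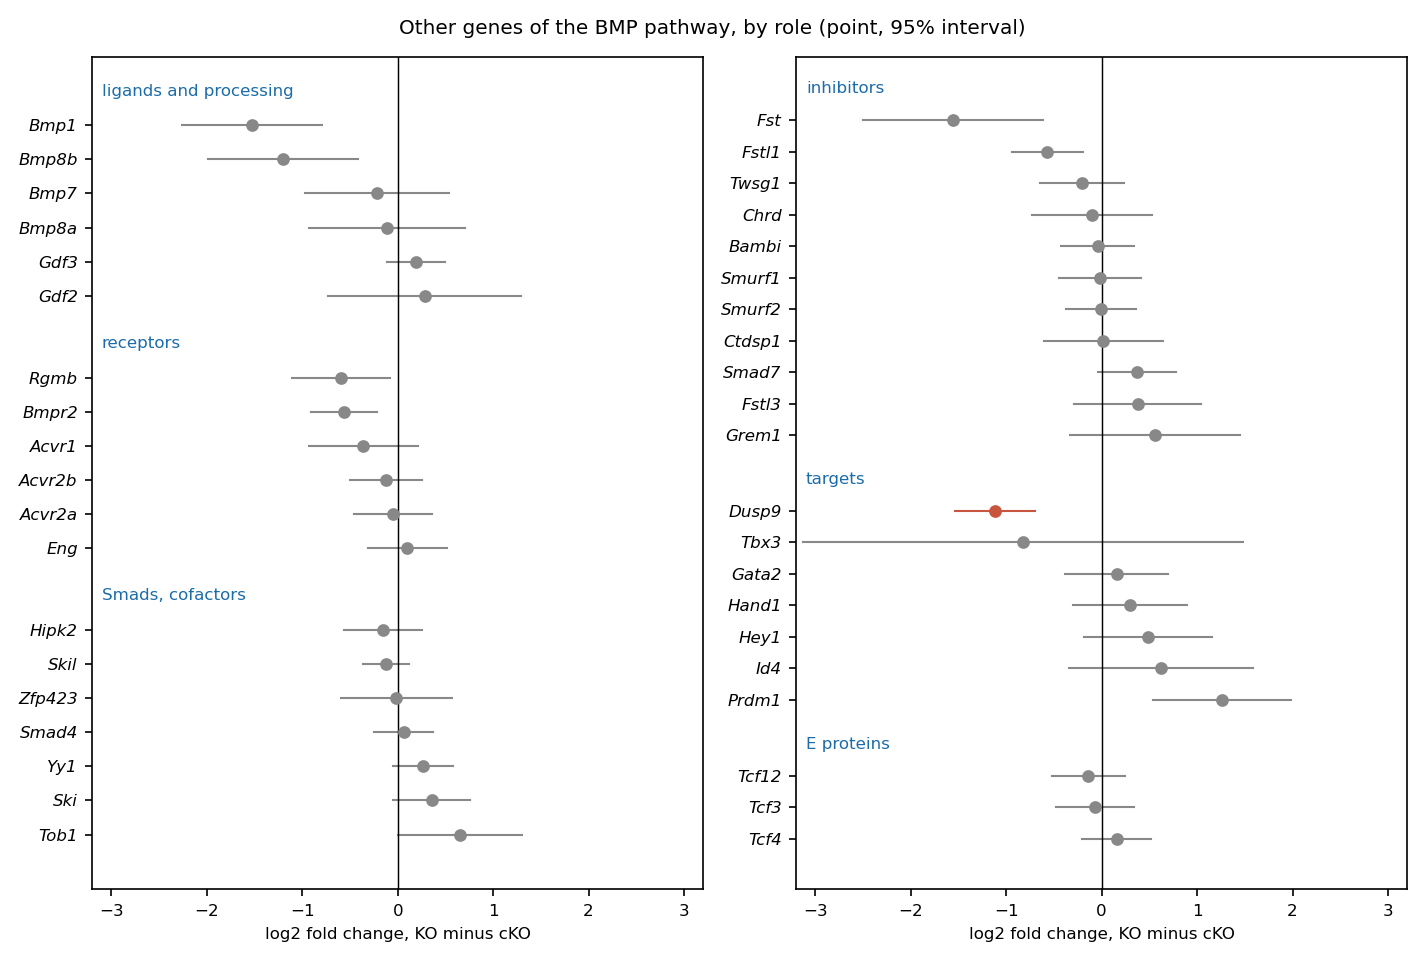
Log2 fold change between KO and cKO (horizontal axis) of the 40 other tested genes of the BMP pathway, grouped by role, as points with 95% intervals from limma. The gene in red, Dusp9 at -1.12, passed the threshold of adjusted p under 0.05, and the 39 in grey did not.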

How the data were processed

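The values the authors deposited are linear intensity signals, which MAS5 produced per the submitters' processing notes (version and settings not given in the sources used here). Each array's trimmed mean was 500. Of 45101 probe sets, 34945 other than controls named 1 gene in the platform's annotation, and 34741 of these took a current symbol from RefSeq (GRCm38.p6). The probe set of highest mean log2(signal + 4.79) stood for a gene, 4.79 being the 10th percentile over all arrays, and the lower 40% of genes were left out. The contrast of KO minus cKO was fitted in limma 3.58.1 (R 4.3.3), using eBayes with a variance trend (2 residual and 5.13 prior degrees of freedom), over all genes, and again over all probe sets, with calls at an adjusted p under 0.05. Fold changes on this scale understate those of dim genes, and only 2 arrays per group limit precision. Intervals are at 95%. The procedure was tested on simulated data with noise independent between arrays, so that test does not cover deviations shared by same-numbered lines.

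The members and lists were chosen with earlier results of these data known. Of the wider list, called genes, else the 2 of smallest p in each role, and Id4, Smad4, Smad7, Smad9, Bmpr2, Bmpr1b, Nog, Dusp9, Tcf3 and Kdm6a were named. Marker lists for primitive endoderm and mesoderm gave 1 and 0 calls. Alternatives were other pseudocounts, filters, scalings, probe set means, variance models, a block for line number, thresholds, and each array left out in turn.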

Additional observations from a re-analysis of the deposited data

How the results depend on the processing

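Of 126 values of the 10 genes under alternatives, 114 kept their direction and their side of the threshold, 3 became calls and 9 changed sign. The sign changes were of Bmpr1a with the mean of probe sets (0.015) and otherwise with 1 array left out, where Bmp4 ran from -0.078 to 0.62, Bmpr1a from -0.30 to 0.11, Id3 from -0.48 to 0.22, Smad1 from -0.064 to 0.18, Msx1 from -0.74 to 0.23 and Msx2 from -0.36 to 0.77. Smad4 ran from -0.033 to 0.16 and Tcf3 from -0.21 to 0.074 in the same way. The count of the 10 genes called was 0 to 1 with 1 array left out. The count of wider pathway genes, 1 here, was 5 with median centring, 0 without the variance trend (limma gave 9 of 40 at an unadjusted p under 0.05 with the trend), 2 at an adjusted p under 0.1, and 1 to 5 with 1 array left out. All genes called, 240 here, were 147 with no filter, 154 with the lower 60% filtered, 129 with the mean of probe sets, 28 without the trend, 428 at an adjusted p under 0.1 and 228 to 432 with 1 array left out. Probe sets called, 239 here, were 125 with no filter, 1 without the trend, 455 at an adjusted p under 0.1 and 220 to 492 with 1 array left out. The causes were not tested.

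The line number is shared only as a number, since the labels do not pair the lines, though deviations of same-numbered lines from their group means correlated across genes (r = 0.52, 10916 genes, which are not independent). With the replicate block the calls were 1048 genes, 1596 probe sets, 8 wider pathway genes and 2 of the 10 genes, Id1 (-0.58, limma adjusted p = 0.024) and Id2 (0.58, limma adjusted p = 0.0331). Fits that leave out an array take the spread of the group that keeps both lines for the group that has 1.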
